A study of Mus musculus with 18 samples.

Results

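The glutathione genes described here were chosen by name: the glutathione S-transferases of the alpha, mu, pi, theta, omega, zeta and kappa classes, the microsomal transferases (Mgst), the glutathione peroxidases (Gpx), the gamma-glutamyltransferases (Ggt), and *Gclc*, *Gclm*, *Gss*, *Gsr*, *Ggct* and *Oplah*. They were 43 of the 55487 genes in each table, with 25 transferases, 8 peroxidases, 3 genes of synthesis, 1 of reduction and 6 of turnover. RNA was measured in subcutaneous white adipose tissue (sWAT) of 12-week-old mice, 4 Ctrl and 4 Csn8AKO, and in brown adipose tissue (BAT) of 4-week-old mice, 5 Ctrl and 5 Csn8AKO. All the mice were male, on chow and killed after a short fast. Ctrl mice, labelled WT, were littermates with floxed *Csn8* alleles (*Cops8* in the tables) and no Cre. Csn8AKO mice carried these alleles together with Cre under the adiponectin promoter, which is active in white and brown adipocytes, so that the other cells of each tissue kept the gene. CSN8 is a subunit of the COP9 signalosome, which removes NEDD8 from cullins.

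Glutathione is a small peptide of glutamate, cysteine and glycine. Glutamate-cysteine ligase, made of a catalytic (*Gclc*) and a modifier (*Gclm*) subunit, carries out the limiting step of its synthesis, and glutathione synthetase (*Gss*) adds the glycine. Peroxidases spend it to reduce hydrogen peroxide and lipid peroxides, and glutathione reductase (*Gsr*) regenerates it. Transferases join it to electrophiles, among them the reactive aldehydes that arise when the lipids of fat cells are oxidised, and the gamma-glutamyl enzymes break it down and recycle its parts.

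The 18 libraries held from 15835721 to 66719937 counted reads, with 0.863% to 47.8% of them on ribosomal RNA genes. *Ucp1*, the uncoupling protein of brown adipocytes, ran from 0.317 to 6.89 CPM (counts scaled to the size of each library, with trimmed means within each tissue) in Ctrl sWAT and from 1570 to 4440 CPM in Ctrl BAT. The count of *Cops8* includes exons outside the deletion, and it was 35 ± 0.911 CPM (SD, n = 4) in Ctrl and 32.2 ± 2.99 CPM in Csn8AKO sWAT, against 39.4 ± 3.22 CPM (SD, n = 5) and 32.1 ± 3.56 CPM in BAT. The library of Csn8AKO sWAT replicate 2 stood apart. It was the lowest of its group for 29 of the 35 glutathione genes tested, and the summed level of 12 adipocyte markers was 10300 CPM there and 20000 to 24600 CPM in the other Csn8AKO sWAT libraries. The sum of 10 lymphocyte markers was 585 CPM in it and 9.51 to 30.6 CPM in the others of its group, and Ctrl sWAT replicate 1 also had 290 CPM against 9.27 to 20.5 CPM. That Ctrl library was the lowest of its group for 21 of the 35 genes. Its adipocyte markers summed to 26900 CPM, against 35000 to 37200 CPM in the other Ctrl sWAT libraries.

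In sWAT of Csn8AKO mice, 21 of the 22 transferases tested had negative log2 fold changes and 5 were called lower, while 0 of the 3 genes of glutathione synthesis were called. A gene was called when its Benjamini-Hochberg adjusted p from edgeR's quasi-likelihood test, over all genes tested, was under 0.05. Of the 43 genes, 35 passed the filter on low counts and 6 of these fell: *Gstm7*, *Gstk1*, *Gsta4*, *Gstt1*, *Gstz1* and *Oplah*. Of all genes tested in sWAT, 3% were called lower. *Mgst2* was the 1 gene that rose, against 2.3% of all genes tested, so that 20% of the glutathione genes and 5.31% of all genes tested were called in either direction. An unadjusted p under 0.05 was found for 20 of the 35, or 57.1%, against 20.4% of all genes tested. All 7 changed by at least 1 on the log2 scale, as did 3.31% of all genes tested. The median log2 fold change was -0.48 over the 35 genes and 0.03 over all genes tested, and 28 of the 35 values were negative. The Ctrl and Csn8AKO libraries did not overlap for 13 genes lower and 2 higher in Csn8AKO, which is 42.9% of the genes, against 14% of all genes tested.

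Most calls in sWAT were lost in some of the fits with a single library left out, and so were calls over all genes. Without Ctrl replicate 2, 3 or 4, or without Csn8AKO replicate 3, *Gstk1* was the 1 gene still called lower. Over all genes tested, 408, 386, 374 and 326 were called in these fits, against 1000 with all libraries. Without Csn8AKO replicate 1, *Gstk1* and *Gstz1* were. Without Csn8AKO replicate 4, which had the highest share of ribosomal RNA (47.8%), *Gsta4*, *Gstm7* and *Gstt1* lost their calls and *Gsta3* became called, and without Ctrl replicate 1 *Gstt1* lost its call. Without Csn8AKO replicate 2, the library that stood apart, the 7 genes were all still called. The 12 adipocyte markers moved the same way, as their summed level was 26900 to 37200 CPM in Ctrl and 10300 to 24600 CPM in Csn8AKO sWAT, with 4 of 12 called lower and none at 0. Of 14 macrophage markers, 10 rose in sWAT, and their sum was 944 to 1380 CPM in Ctrl and 1530 to 2630 CPM in Csn8AKO mice. Brown adipocyte markers summed to 114 to 227 CPM in Ctrl and 21.5 to 46.2 CPM in Csn8AKO sWAT. Of the 10 fibroblast and progenitor markers 1 rose in sWAT, and of the 10 lymphocyte markers 0 were called. Skeletal muscle markers summed to 195 to 2920 CPM in Ctrl and 53.6 to 1750 CPM in Csn8AKO sWAT, with 0 of 8 called. Liver markers summed to 27 to 177 CPM in Ctrl and 4.93 to 87.2 CPM in Csn8AKO sWAT, with 0 of 6 called. The part of these cells in the glutathione values was not tested, and in whole tissue fewer cells of a type and less RNA per cell cannot be told apart.

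In BAT, 6 of the 7 mu class transferases fell, with the genes of the kappa and zeta classes. Of 37 genes tested, 15 fell and 5 rose, against 15.8% and 16% of all genes tested. In either direction 54.1% were called, against 31.9% of all genes tested. The genes that fell were *Gstm1*, *Gstm2*, *Gstm3*, *Gstm4*, *Gstm5*, *Gstm7*, *Gsta4*, *Gstk1*, *Gstz1*, *Gsto2*, *Gstt1*, *Gstt2*, *Mgst3*, *Gpx1* and *Gpx4*, of which 13 are transferases. *Gstp3*, *Gsta3*, *Mgst1*, *Ggt5* and *Ggt7* rose. With a change of at least 1 on the log2 scale there were 7 lower genes and 1 higher, *Gstp3*, against 11% of all genes tested in either direction. The median log2 fold change was -0.32 over the 37 genes and 0.01 over all genes tested, and -0.77 over the 23 transferases tested. The groups did not overlap for 12 genes lower and 3 higher in Csn8AKO mice, or 40.5% of the genes, against 21% of all genes tested.

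The summed level of the adipocyte markers did not separate the genotypes in BAT. It was 16800 to 21700 CPM in Ctrl and 17700 to 23400 CPM in Csn8AKO mice, and 1 of the 12 markers rose and 2 fell. Single markers could differ, as *Retn* was 5.87 to 19.3 CPM in Ctrl and 80.1 to 147 CPM in Csn8AKO BAT. Of 10 brown adipocyte markers 1 rose and 3 fell, with sums of 5140 to 8710 CPM in Ctrl and 4870 to 10100 CPM in Csn8AKO mice. Macrophage markers did separate them, with 13 of 14 higher and sums of 124 to 165 CPM in Ctrl and 362 to 493 CPM in Csn8AKO mice. All 10 markers of fibroblasts and progenitors rose in BAT, and their sum was 1080 to 1830 CPM in Ctrl and 2800 to 4810 CPM in Csn8AKO mice. Of the 10 lymphocyte markers 2 rose and 1 fell, with sums of 5.37 to 8.87 CPM in Ctrl and 7.57 to 11.1 CPM in Csn8AKO mice. Endothelial markers rose for 3 of 7, with overlapping sums of 670 to 898 CPM and 732 to 1030 CPM, and of 5 skeletal muscle markers tested 2 rose and 1 fell. Skeletal muscle markers summed to 130 and 223 CPM in Csn8AKO BAT replicates 1 and 5. The sums were 10.3 to 11.1 CPM in the other Csn8AKO libraries and 26.5 to 38 CPM in Ctrl BAT. The part of these cells in the glutathione values was not tested.

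**Figure D1:**
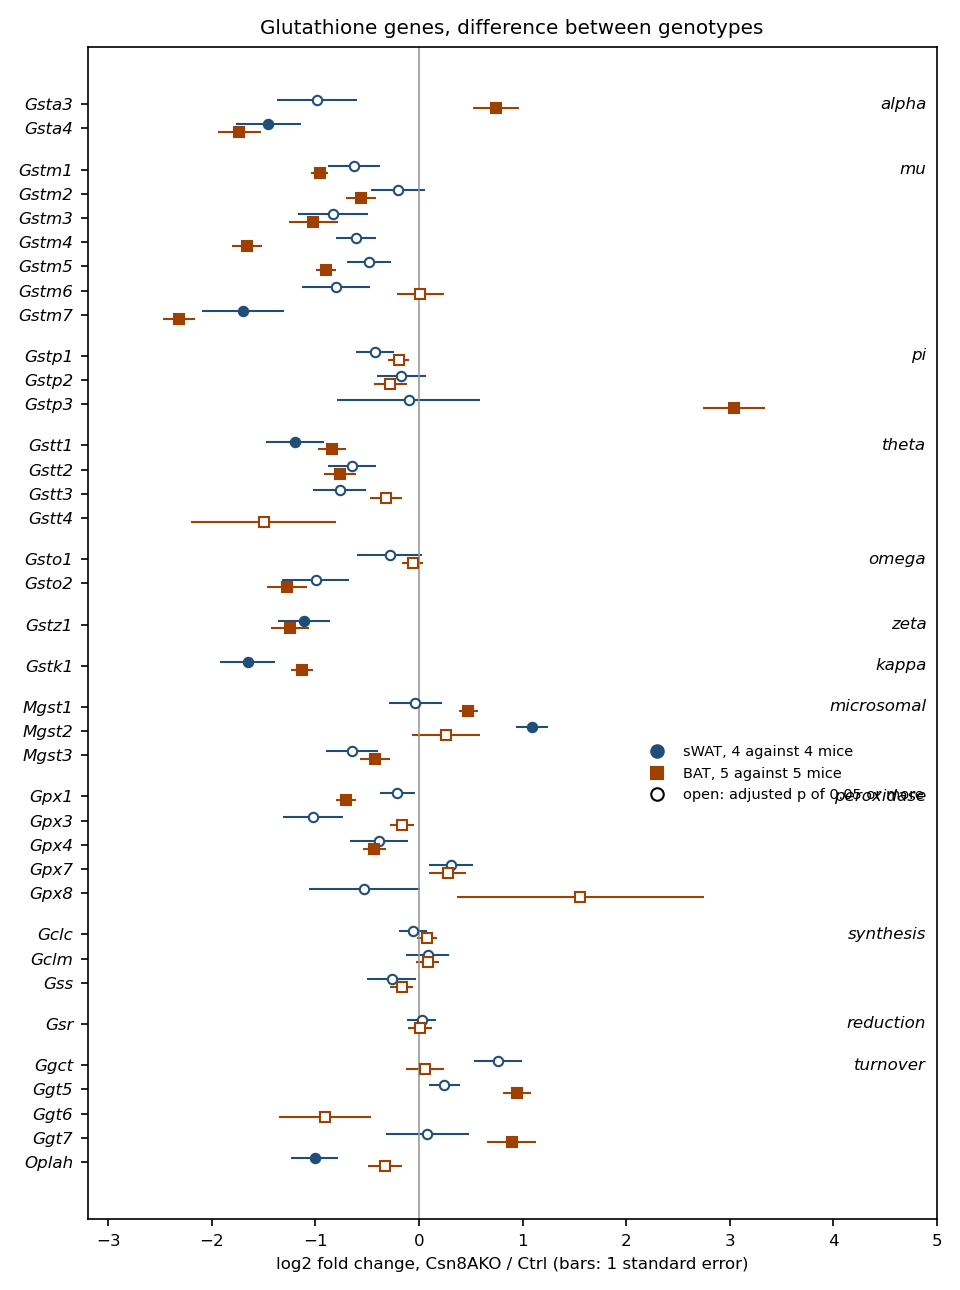
Log2 fold change of each tested glutathione gene, Csn8AKO over Ctrl, in sWAT (circles, 4 against 4 mice) and BAT (squares, 5 against 5 mice), with bars of 1 standard error and genes grouped by class on the vertical axis. Filled symbols passed the adjusted p of 0.05. The transferase symbols lie mostly left of 0 in both tissues, the synthesis and reduction genes lie near 0, and *Gstp3* in BAT stands alone at the right.

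Genes of synthesis and reduction did not separate the genotypes in either tissue. The test called 0 of the 3 synthesis genes in sWAT and 0 in BAT, 0 had an unadjusted p under 0.05, and DESeq2 and limma voom called none of them either. *Gclc* was 25.3 ± 1.88 CPM in Ctrl and 24.3 ± 3.06 CPM in Csn8AKO sWAT (SD, n = 4), and 29.5 ± 3.47 and 31.0 ± 3.04 CPM in BAT (SD, n = 5). Its log2 fold change was -0.06 ± 0.13 (SE) in sWAT and 0.08 ± 0.10 in BAT. *Gclm* had log2 fold changes of 0.08 ± 0.21 and 0.08 ± 0.12. Values for *Gss* were -0.26 ± 0.24 and -0.17 ± 0.11, and its count is uncertain because it overlaps *Acss2*, a more abundant gene, on the other strand. *Gsr*, the reductase, was 45.4 ± 4.89 CPM in Ctrl and 46.3 ± 6.72 CPM in Csn8AKO sWAT, and 27.2 ± 4.73 and 27.5 ± 2.49 CPM in BAT. These standard errors leave room for small changes of either sign.

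The peroxidases hold either selenocysteine or cysteine in the active site, and the codon at that site tells the members apart. The coding sequences around that codon, from the GENCODE M21 transcripts of GRCm38, are shown for the 5 peroxidases that were tested, with the codon in capitals: an in-frame TGA read as selenocysteine in *Gpx1*, *Gpx3* and *Gpx4*, and a cysteine codon at the aligned position in *Gpx7* and *Gpx8*.
Gpx1: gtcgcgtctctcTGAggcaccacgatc
Gpx3: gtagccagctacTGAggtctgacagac
Gpx4: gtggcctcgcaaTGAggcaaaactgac
Gpx7: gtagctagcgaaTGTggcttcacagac
Gpx8: gtggctagtgacTGCcgcttcacagac
In *Gpx2*, the gastrointestinal form, the codon is also TGA, while *Gpx5* and *Gpx6* have TGC and TGT. These 3 had at most 4, 2 and 2 reads in any library and were not tested.

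Measured per kilobase, *Gpx3*, *Gpx4* and *Gpx1* were the most abundant of the 43 genes in Ctrl sWAT. On a scale of CPM divided by gene length in kilobases, with all 18 libraries scaled together (CPM per kb), *Gpx3*, the secreted plasma form, had 400 ± 121 CPM per kb (SD, n = 4), *Gpx4*, which reduces lipid peroxides in membranes, 213 ± 55.4, and *Gpx1*, the cytosolic form, 160 ± 8.93. The ranges of *Gpx3* and *Gpx4* overlapped, as did those of *Gpx1* and the next gene, *Mgst1*, at 153 ± 18.0. In Ctrl BAT *Gpx3* reached 1100 ± 129 and *Gpx4* 505 ± 65.8 (SD, n = 5). *Gpx7*, a peroxidase of the endoplasmic reticulum, was at 7.53 ± 0.575 in Ctrl sWAT and 2.96 ± 0.518 in Ctrl BAT.

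*Gpx1* fell in BAT. It was 230, 187, 191, 180 and 179 CPM in the Ctrl libraries and 98.5, 135, 120, 113 and 126 CPM in the Csn8AKO libraries, a log2 fold change of -0.71 ± 0.10 (SE) with an adjusted p of 0.000132. Every Csn8AKO value lay below every Ctrl value. *Gpx4* was 978, 808, 818, 694 and 902 CPM in Ctrl and 644, 712, 618, 573 and 562 CPM in Csn8AKO BAT, and fell by 0.43 on the log2 scale (SE 0.11, adjusted p = 0.00839). The highest Csn8AKO value of *Gpx4* lay just above the lowest Ctrl value, and the call was lost with all 4 groups in 1 fit (adjusted p = 0.116). For *Gpx3* the BAT value was -0.16 ± 0.12 on the log2 scale (adjusted p = 0.324), with overlapping groups.

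In sWAT the edgeR test called 0 of the 5 peroxidases tested, and 1 had an unadjusted p under 0.05. That gene was *Gpx3*, at 523, 602, 879 and 987 CPM in Ctrl and 416, 206, 459 and 387 CPM in Csn8AKO mice, with a log2 fold change of -1.03 ± 0.29 and an adjusted p of 0.0726. Its groups did not overlap, and DESeq2 and limma voom called it lower, as did edgeR with no filter or with scaling by library size alone. *Gpx1* and *Gpx4* had log2 fold changes of -0.21 ± 0.17 and -0.39 ± 0.28 in sWAT.

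*Gpx8*, a second peroxidase of the endoplasmic reticulum, varied widely within every group. It was 24.8, 7.29, 8.00 and 27.9 CPM in Ctrl and 21.3, 7.38, 10.3 and 8.08 CPM in Csn8AKO sWAT. In BAT it was 2.15, 1.49, 1.44, 28.1 and 1.32 CPM in Ctrl and 3.21, 18.4, 33.4, 3.67 and 44.1 CPM in Csn8AKO mice. Its log2 fold change of 1.56 ± 1.20 in BAT therefore had an adjusted p of 0.37, and without Ctrl replicate 4, the 1 high Ctrl library, it was called higher. Its gene, on chromosome 13 from 113042753 to 113046410 of GRCm38, overlaps *Cdc20b* on the other strand. *Ccno*, a cyclin gene of multiciliated cells in the same region, was looked at after the values were seen, and it was highest in the same 4 BAT libraries, with 1.55 CPM in Ctrl replicate 4 and 1.54, 2.20 and 1.57 CPM in Csn8AKO replicates 2, 3 and 5. It lay between 0.0169 and 0.388 CPM in the other BAT libraries.

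**Figure D2:**
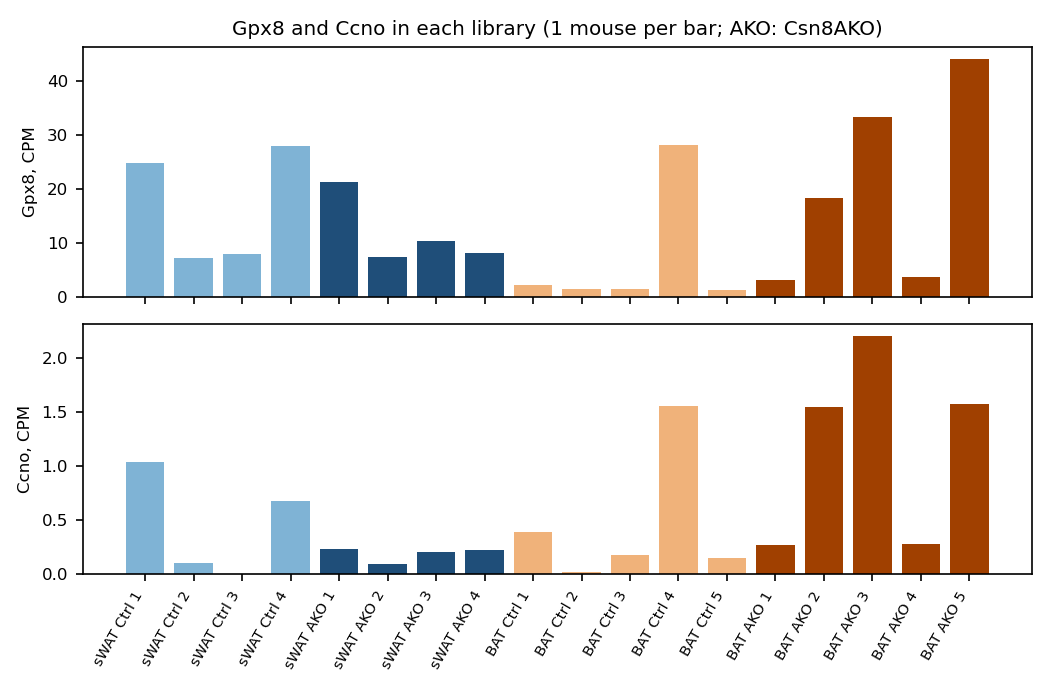
Level of *Gpx8* and of its neighbour *Ccno* in each of the 18 libraries, in CPM, with 1 mouse per bar and AKO standing for Csn8AKO. In BAT the 4 libraries with tall *Gpx8* bars, 18.4 to 44.1 CPM, are 1 Ctrl and 3 Csn8AKO mice, and their *Ccno* bars are tall as well.

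The mu class transferases lie in a cluster on chromosome 3, from 107895821 (*Gstm5*) to 108044894 (*Gstm4*) of GRCm38. In BAT, 6 of its 7 genes fell, and the seventh, *Gstm6*, had a log2 fold change of 0.01 ± 0.23. In sWAT all 7 values were negative, between -0.21 and -1.70, and *Gstm7* was the 1 gene called, while 6 had an unadjusted p under 0.05. The coding sequences of the class shared no stretch as long as a read of 150 bases.

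*Gstm7* had the largest fitted fall of the genes tested in either tissue, although its sWAT value lay within 1 standard error of that of *Gstk1*. It was 7.14, 6.45, 6.45, 8.75 and 6.4 CPM in Ctrl BAT and 1.42, 1.5, 1.68, 1.15 and 1.37 CPM in Csn8AKO BAT, which is 4.98-fold lower (log2 fold change -2.32 ± 0.16, adjusted p = 3.01e-07). In sWAT it was 2.90, 4.56, 4.26 and 4.41 CPM in Ctrl and 1.39, 0.407, 1.65 and 1.57 CPM in Csn8AKO mice, 3.24-fold lower (log2 fold change -1.70 ± 0.40, adjusted p = 0.0368). Neither tissue had overlapping groups. Without the sWAT library that stood apart, the sWAT value was -1.39 ± 0.28 (adjusted p = 0.0154). Of the 8 fits with 1 sWAT library left out, 6 lost the call.

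*Gstm4* had the next largest fall within the mu class in BAT, at 19.1, 13.6, 16.4, 12.4 and 13.6 CPM in Ctrl and 5.25, 4.57, 5.71, 3.98 and 4.18 CPM in Csn8AKO mice, 3.17-fold lower (log2 fold change -1.66 ± 0.15, adjusted p = 2.96e-06). In sWAT it was 8.73, 9.87, 9.36 and 9.40 CPM in Ctrl and 6.02, 4.44, 7.03 and 7.10 CPM in Csn8AKO mice, with a log2 fold change of -0.61 ± 0.19 and an adjusted p of 0.105. All Csn8AKO libraries lay below all Ctrl libraries in both tissues. The difference between the tissues was itself called: the log2 fold change in BAT minus that in sWAT was -1.07 ± 0.24 (interaction term, adjusted p = 0.0205). It held without any single library and was lost with scaling by library size alone (adjusted p = 0.326).

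*Gstm1*, the most abundant mu gene, was 130, 129, 117, 127 and 150 CPM in Ctrl and 63.2, 66.2, 72.3, 65.7 and 68.4 CPM in Csn8AKO BAT (log2 fold change -0.96 ± 0.08, adjusted p = 1.71e-06). *Gstm5* was 19.3, 17.6, 16.2, 14.8 and 17.0 CPM in Ctrl and 9.87, 9.22, 9.21, 8.78 and 8.39 CPM in Csn8AKO BAT (-0.90 ± 0.10, adjusted p = 1.55e-05). *Gstm3*, a scarce gene, was 1.40, 1.42, 1.40, 1.20 and 1.32 CPM against 0.354, 0.788, 0.584, 0.821 and 0.802 CPM (-1.02 ± 0.24, adjusted p = 0.00464). The groups did not overlap for these 3 genes. They did for *Gstm2*, at 35.9, 33.1, 21, 23.1 and 35.3 CPM in Ctrl and 22.0, 17.3, 21.2, 20.2 and 19.6 CPM in Csn8AKO BAT (-0.56 ± 0.15, adjusted p = 0.00984). The call of *Gstm2* was lost with scaling by library size alone (adjusted p = 0.0799) and with all 4 groups in 1 fit. *Gstm5* overlaps *4933431E20Rik* on the other strand, and how the strand was used in counting is not given in the sources used here, so reads of the pair may not be separated.

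**Figure D3:**
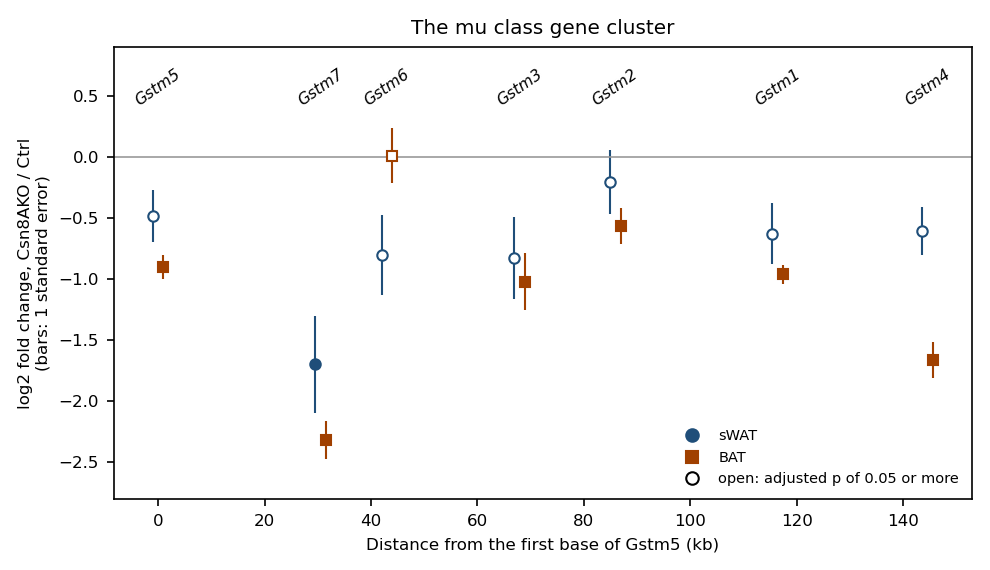
Log2 fold change, Csn8AKO over Ctrl, with bars of 1 standard error, for the 7 mu class genes against their distance in kilobases from the first base of *Gstm5*, in sWAT (circles) and BAT (squares). Filled symbols passed the adjusted p of 0.05. In BAT the values run from 0.01 at *Gstm6* to -2.32 at *Gstm7*, its neighbour in the cluster.

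The alpha class held 2 expressed genes that went different ways in BAT. *Gsta4*, which conjugates hydroxynonenal, was 60.9, 52.5, 57.5, 74.9 and 51.7 CPM in Ctrl and 23.4, 25.7, 14.3, 13.2 and 13.0 CPM in Csn8AKO BAT, 3.33-fold lower (log2 fold change -1.73 ± 0.21, adjusted p = 0.000106). It also fell in sWAT, from 14.1, 21.7, 34.2 and 16.8 CPM in Ctrl to 9.03, 4.84, 10.4 and 7.33 CPM in Csn8AKO mice (log2 fold change -1.46 ± 0.31, adjusted p = 0.0295). The groups did not overlap in either tissue, and without the sWAT library that stood apart the value was -1.28 ± 0.30 (adjusted p = 0.0344). Of the 8 fits with 1 sWAT library left out, 6 lost the call.

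*Gsta3* rose in BAT, where it was scarce, from 1.5, 0.982, 1.19, 0.867 and 1.57 CPM to 1.99, 1.85, 2.23, 1.5 and 2.71 CPM (log2 fold change 0.75 ± 0.22, adjusted p = 0.0184). The groups overlapped, and the call was lost without Csn8AKO replicate 5 and with all 4 groups in 1 fit (adjusted p = 0.102 in the latter). In sWAT it was 22.4, 41.6, 38.0 and 30.8 CPM in Ctrl and 16.8, 7.51, 12.7 and 30.4 CPM in Csn8AKO mice, for which the test gave -0.98 ± 0.39 on the log2 scale (adjusted p = 0.193). The interaction term was 1.71 ± 0.45 with an adjusted p of 0.0507. *Gsta1* and *Gsta2* had at most 6 and 2 reads in any library and were not tested.

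*Gstp3*, a pi class gene in BAT, rose the most. The gene lies on chromosome 19 from 4057477 to 4059569 of GRCm38. It was 0.853, 1.05, 1.42, 0.812 and 1.14 CPM in Ctrl and 15.6, 6.39, 7.08, 9.33 and 5.11 CPM in Csn8AKO BAT, 8.24-fold higher (log2 fold change 3.04 ± 0.30, adjusted p = 9.21e-06). Every Csn8AKO library lay well above every Ctrl library. In sWAT it was 2.49, 1.16, 1.90 and 0.415 CPM in Ctrl and 1.30, 2.63, 0.138 and 1.42 CPM in Csn8AKO mice (log2 fold change -0.10 ± 0.69, adjusted p = 0.954). The interaction term was 3.12 ± 0.71 (adjusted p = 0.0244), and it lost its call without sWAT Ctrl replicate 1 or 3 or Csn8AKO replicate 1, with adjusted p of 0.0522, 0.0572 and 0.0513, and also with the replicate block, with no filter and with scaling by library size alone. The counts behind it in sWAT were low, from 2 to 58 reads per library.

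The neighbours *Gstp1* and *Gstp2* had no call in either tissue, with log2 fold changes of -0.20 ± 0.10 and -0.28 ± 0.16 in BAT and -0.42 ± 0.18 and -0.17 ± 0.23 in sWAT. Without Ctrl BAT replicate 4, *Gstp1* was called in BAT. Their coding sequences are 98.1% identical and share 44.4% of windows of 150 bases, so their split is uncertain. *Gstp3* is 72.7% identical to *Gstp1* and shares no such window with it.

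Across all 43 genes, *Gstp3* and *Gstm4* were the 2 whose interaction was called of 37 tested, 1 higher and 1 lower in BAT, against 1.61% and 0.755% of all genes tested, or 5.41% of the glutathione genes against 2.36% in either direction. Both terms were of at least 1 on the log2 scale, as were 1.81% of all genes tested, and 9 of the 37, or 24.3%, had an unadjusted p under 0.05, against 15.3% of all genes tested. Tissue and age cannot be told apart in this term, because all sWAT came from 12-week-old and all BAT from 4-week-old mice.

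**Figure D4:**
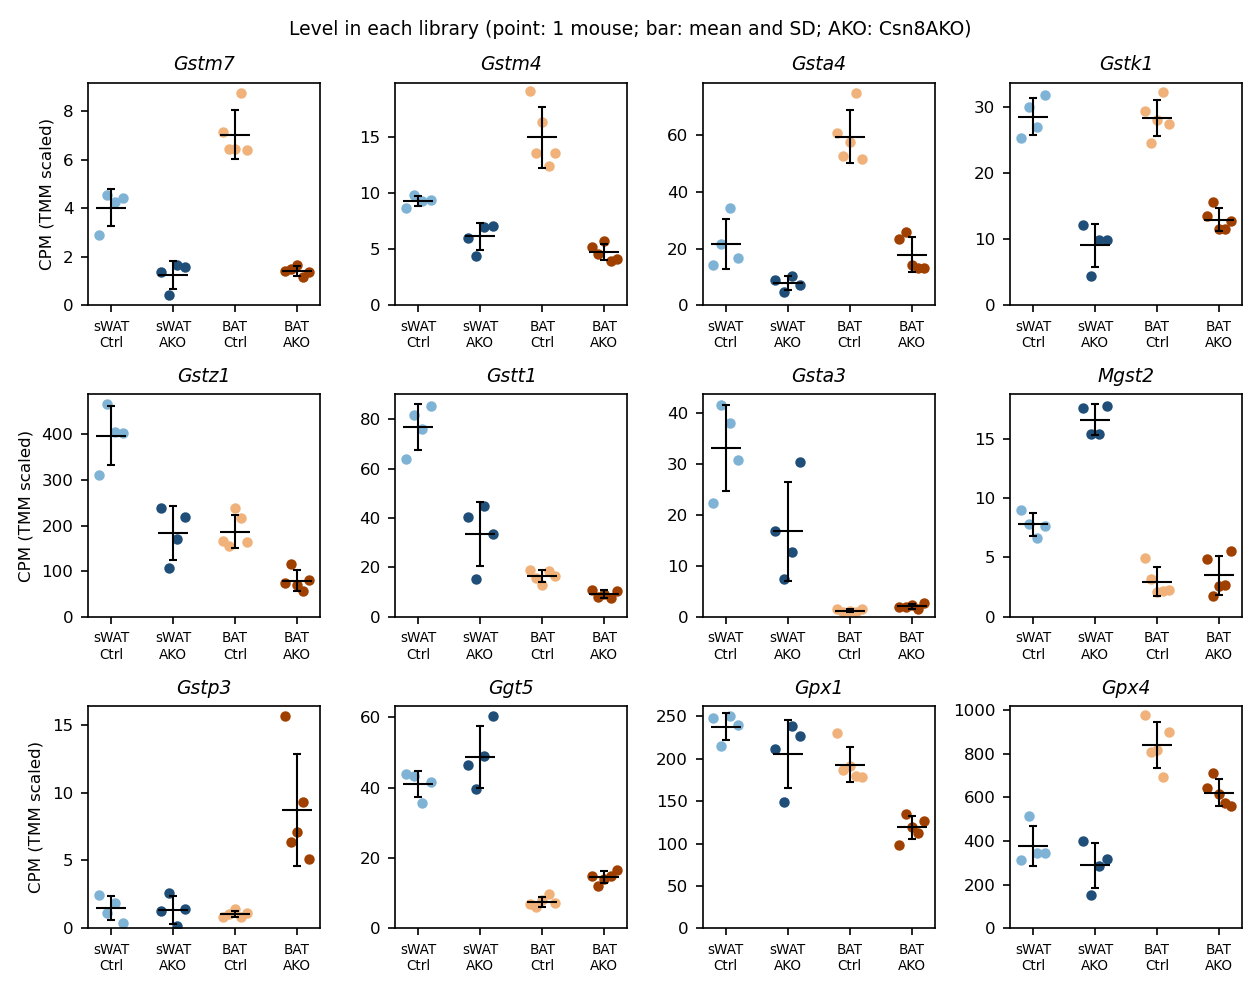
CPM of 12 glutathione genes in each library, with 1 point per mouse, the mean and SD as black bars, and AKO standing for Csn8AKO. CPM was scaled within each tissue, so that heights compare genotypes and not tissues. *Gstm7*, *Gsta4*, *Gstk1*, *Gstz1* and *Gstt1* are lower in Csn8AKO mice of both tissues with no overlap, *Mgst2* is higher in sWAT, and *Gstp3* and *Ggt5* are higher in BAT.

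*Gstk1*, the kappa class transferase of mitochondria and peroxisomes, fell in both tissues. In sWAT it was 25.4, 30.0, 27.1 and 31.8 CPM in Ctrl and 12.2, 4.44, 9.86 and 9.87 CPM in Csn8AKO mice (log2 fold change -1.65 ± 0.27, adjusted p = 0.0082). In BAT it was 29.4, 24.6, 28.1, 32.3 and 27.5 CPM in Ctrl and 13.6, 15.7, 11.5, 11.5 and 12.8 CPM in Csn8AKO mice (log2 fold change -1.13 ± 0.11, adjusted p = 4.96e-06). The groups did not overlap in either tissue. Its call held in all 17 alternatives in sWAT and all 19 in BAT, and without the sWAT library that stood apart it was -1.42 ± 0.15 (adjusted p = 0.000911).

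*Gstz1*, an enzyme of tyrosine breakdown, was 310, 467, 406 and 403 CPM in Ctrl and 238, 106, 170 and 219 CPM in Csn8AKO sWAT (log2 fold change -1.11 ± 0.25, adjusted p = 0.033). In BAT it was 166, 155, 238, 216 and 163 CPM in Ctrl and 73.4, 116, 69.0, 57.6 and 80.4 CPM in Csn8AKO mice (-1.24 ± 0.18, adjusted p = 0.000298). Neither pair of groups overlapped, and without the sWAT library that stood apart the value was -0.92 ± 0.18 (adjusted p = 0.0147). Of the 8 fits with 1 sWAT library left out, 4 lost the call. *Pomt2*, which overlaps *Gstz1* on the other strand, averaged 18.9 and 20.6 CPM in Ctrl and Csn8AKO sWAT and 23.0 and 23.5 CPM in BAT.

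In the theta class, *Gstt1* was 64.1, 81.8, 76.0 and 85.3 CPM in Ctrl and 40.3, 15.3, 44.9 and 33.6 CPM in Csn8AKO sWAT (log2 fold change -1.20 ± 0.28, adjusted p = 0.0408). Without the library that stood apart it was -0.95 ± 0.15 (adjusted p = 0.00534). Of the 8 fits with 1 sWAT library left out, 7 lost the call. In BAT *Gstt1* was 19.1, 15.6, 12.8, 18.6 and 16.7 CPM in Ctrl and 11.0, 8.04, 9.28, 7.55 and 10.4 CPM in Csn8AKO mice (-0.84 ± 0.14, adjusted p = 0.000366). All Csn8AKO libraries were below all Ctrl libraries in both tissues. *Gstt2* was 62.5, 50.4, 50.3, 50 and 51.9 CPM in Ctrl and 34.1, 44.7, 22.9, 28.2 and 26.2 CPM in Csn8AKO BAT (-0.77 ± 0.15, adjusted p = 0.00204), again with no overlap. In sWAT *Gstt2* had -0.65 ± 0.23 with an adjusted p of 0.144. *Gstt3* had no call in either tissue, and *Gstt4*, with at most 46 reads in a library, was tested in BAT and had no call.

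The omega class genes were both higher in BAT than in sWAT of Ctrl mice, and 1 of them fell in Csn8AKO BAT. *Gsto2* was 8.07, 4.44, 6.99, 4.76 and 4.94 CPM in Ctrl and 2.68, 2.88, 1.92, 2.22 and 2.31 CPM in Csn8AKO BAT (log2 fold change -1.28 ± 0.19, adjusted p = 0.000201). Its groups did not overlap. In sWAT *Gsto2* had -1.0 ± 0.32 (adjusted p = 0.11). *Gsto1*, next to it on chromosome 19, had -0.06 ± 0.10 in BAT and -0.28 ± 0.32 in sWAT. The omega pair overlaps *Cfap43* on the other strand, which averaged 0.791 and 0.596 CPM in Ctrl and Csn8AKO BAT. In sWAT *Cfap43* averaged 1.87 and 1.53 CPM, beside 1.88 and 0.954 CPM for *Gsto2*. The sWAT count of *Gsto2* is therefore uncertain where the strands are not separated.

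The microsomal transferases, membrane proteins that include enzymes acting on leukotrienes, went different ways. *Mgst2* rose in sWAT, from 8.96, 7.85, 6.63 and 7.68 CPM in Ctrl to 17.6, 15.4, 15.4 and 17.8 CPM in Csn8AKO mice, 2.13-fold higher (log2 fold change 1.09 ± 0.15, adjusted p = 0.00534). The groups did not overlap, and the value without the library that stood apart was 1.12 ± 0.16 (adjusted p = 0.00359). The call was lost with scaling by library size alone (adjusted p = 0.249). In BAT the log2 fold change of *Mgst2* was 0.26 ± 0.33 (adjusted p = 0.593). *Mgst1*, an abundant gene, was 295, 266, 312, 257 and 285 CPM in Ctrl and 359, 447, 361, 384 and 417 CPM in Csn8AKO BAT (log2 fold change 0.48 ± 0.09, adjusted p = 0.00147), without overlap. Its call was lost with all 4 groups in 1 fit (adjusted p = 0.0745). *Mgst3* was 44.0, 38.8, 31.2, 29.7 and 37.3 CPM in Ctrl and 28.9, 17.9, 27.3, 32.6 and 27.7 CPM in Csn8AKO BAT (-0.42 ± 0.15, adjusted p = 0.0416). The groups of *Mgst3* overlapped, and its call was lost in 10 of 19 alternatives.

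Among the turnover genes, *Ggt5*, which cleaves leukotriene C4, rose in BAT from 6.82, 6.15, 7.91, 9.63 and 7.12 CPM to 14.8, 12.1, 14.0, 14.9 and 16.7 CPM (log2 fold change 0.95 ± 0.13, adjusted p = 0.000112). No libraries overlapped. *Ggt7* rose from 1.29, 0.711, 0.887, 0.701 and 1.23 CPM to 2.13, 1.14, 1.92, 1.96 and 1.67 CPM (0.89 ± 0.24, adjusted p = 0.00996), with 1 Csn8AKO value inside the Ctrl range. *Acss2*, on the other strand of *Ggt7*, averaged 392 CPM in Ctrl and 366 CPM in Csn8AKO BAT, far above *Ggt7*, whose count is uncertain where the strands are not separated. *Oplah*, the 5-oxoprolinase that returns glutamate to the cycle, fell in sWAT, from 131, 147, 153 and 160 CPM to 76.4, 45.6, 63.9 and 108 CPM (-1.01 ± 0.23, adjusted p = 0.0345, and -0.84 ± 0.18, adjusted p = 0.02, without the library that stood apart). The sWAT call of *Oplah* was lost in 5 of the 8 fits with 1 sWAT library left out. In BAT *Oplah* had -0.33 ± 0.16 (adjusted p = 0.143). *Exosc4*, on its other strand, averaged 11.5 and 9.99 CPM in Ctrl and Csn8AKO sWAT. *Ggct* had 0.76 ± 0.23 in sWAT (adjusted p = 0.0918), with every Csn8AKO library above every Ctrl library, and 0.06 ± 0.18 in BAT. *Ggt6*, with at most 25 reads in a library, passed the filter in BAT and had no call there, and *Ggt1*, with at most 56, passed it in neither tissue.

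In Ctrl mice, BAT and sWAT differed in the levels of most of these genes. Between Ctrl mice, 13 of 36 genes were higher and 15 lower in BAT, against 25.7% and 27% of all genes tested, which is 77.8% against 52.7% in either direction. *Gsta3* was 26.4-fold lower in BAT (log2 fold change -4.72 ± 0.23, adjusted p = 8.24e-09), *Ggt5* 5.29-fold lower (-2.40 ± 0.13, adjusted p = 1.12e-08) and *Gstt1* 4.49-fold lower (-2.17 ± 0.13, adjusted p = 2.32e-08). *Gsto2* (1.67 ± 0.23), *Oplah* (1.54 ± 0.15), *Gsta4* (1.5 ± 0.25), *Gpx3* (1.40 ± 0.20) and *Gss* (1.35 ± 0.22) had the largest log2 fold changes of BAT over sWAT among the genes called higher. *Acss2*, which overlaps *Gss* on the other strand, averaged 158 CPM in Ctrl sWAT and 392 CPM in Ctrl BAT, and its part in the *Gss* value was not tested. Summed per kilobase, the 8 peroxidases had 796 ± 122 CPM per kb in sWAT (SD, n = 4) and 1750 ± 139 in BAT (SD, n = 5), and the 25 transferases 659 ± 88.8 and 525 ± 21.3. In Csn8AKO mice the mu class sum was 70.7 ± 3.17 in BAT, against 139 ± 12.6 in Ctrl BAT, and 126 ± 41.7 against 185 ± 23.2 in sWAT. Tissue and age cannot be told apart here either.

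**Figure D5:**
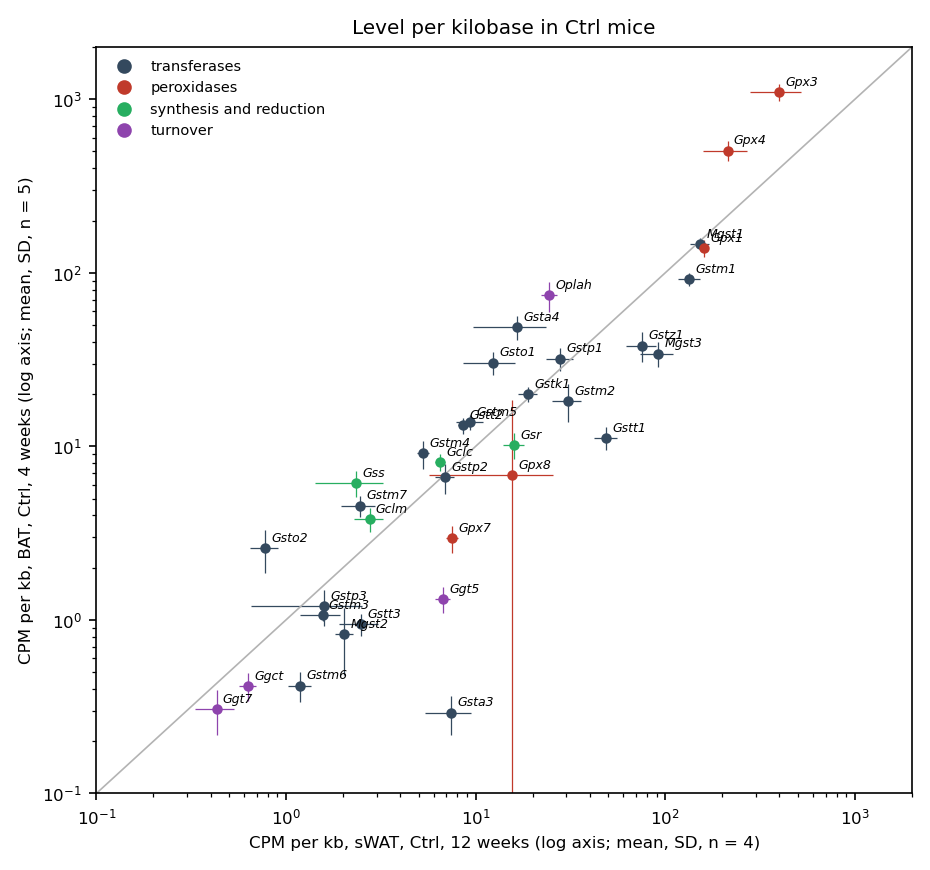
Level of each glutathione gene per kilobase in Ctrl sWAT (horizontal axis, n = 4) and Ctrl BAT (vertical axis, n = 5), as CPM per kb on log axes, with SD bars and a line of equality. Genes under 0.1 in either tissue are not drawn, and the SD bar of *Gpx8* in BAT runs off the axis because the SD of 11.7 is above the mean of 6.81. *Gpx3* and *Gpx4* sit at the top right, and *Gsta3* lies far below the line.

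The rest of the pathway was read from a list of 55 further genes of glutathione supply, use, export and control, of which 53 were tested in each tissue. In sWAT, 3 rose and 4 fell, against 5.31% of all genes tested called in either direction, and the 5 called genes of smallest adjusted p were *Glrx* (glutaredoxin, log2 fold change 1.75, adjusted p = 0.00716), *Slc1a5* (a glutamine carrier, -1.41, adjusted p = 0.0136), *Hpgds* (prostaglandin D synthase, 1.44, adjusted p = 0.0194), *Txnrd3* (-0.92, adjusted p = 0.0247) and *Anpep* (a peptidase of the cell surface, 0.98, adjusted p = 0.0318). In BAT, 15 rose and 14 fell, against 31.9% of all genes tested in either direction. There the 5 were *Abcc5* (an exporter, 1.21, adjusted p = 5.48e-08), *Anpep* (2.01, adjusted p = 1.38e-07), *Ltc4s* (leukotriene C4 synthase, 2.04, adjusted p = 8.13e-07), *Abcc4* (an exporter, -0.90, adjusted p = 4.61e-05) and *Alox5ap* (a partner of 5-lipoxygenase, 1.82, adjusted p = 5.16e-05). Of 8 mast cell markers, cells that also make leukotrienes and prostaglandin D, 6 were tested in BAT and 4 rose, and their part in these values was not tested. The median log2 fold change of the list was -0.08 in sWAT and -0.01 in BAT.

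Genes of cystine import and of NRF2 control were looked at after the values of the list were seen. *Slc7a11*, the cystine carrier, and its partner *Slc3a2* rose in BAT by 2.25 ± 0.40 (adjusted p = 0.00072) and 1.37 ± 0.24 (adjusted p = 0.00164) on the log2 scale. *Slc7a11* was scarce, at 0.0968 to 0.332 CPM in Ctrl and 0.315 to 1.45 CPM in Csn8AKO BAT, and its groups overlapped. *Slc3a2* was 38.5 to 104 CPM in Ctrl and 114 to 207 CPM in Csn8AKO BAT, without overlap. In sWAT *Slc7a11* and *Slc3a2* had 0.50 ± 0.87 (adjusted p = 0.806) and 0.28 ± 0.16 (adjusted p = 0.366), with no call. *Nfe2l2*, which encodes NRF2, had 0.00 ± 0.11 in BAT and 0.06 ± 0.17 in sWAT. *Keap1*, which holds NRF2 for degradation, and *Bach1*, a repressor at the same sites, fell in BAT by 0.42 (adjusted p = 0.00158) and 0.36 (adjusted p = 0.000966) on the log2 scale, and had no call in sWAT. *Nfe2l1*, of the same list, was called lower in sWAT, at -0.75 ± 0.18 on the log2 scale (adjusted p = 0.0423). In BAT *Nfe2l1* averaged 638 ± 63 CPM in Ctrl and 489 ± 66.6 CPM in Csn8AKO mice (SD, n = 5).

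NRF2 binds the antioxidant response element, whose core TGACNNNGC was searched on both strands in the RefSeq promoter windows of GRCm38, which hold 250 bases before and 50 after a start. Windows were matched for 37 of the 43 genes, and 7 of these, or 18.9%, held the core in at least 1 window, against 14% of all genes in that table: *Gclm*, *Ggct*, *Ggt1*, *Gsta3*, *Gstm5*, *Gstm7* and *Mgst1*. Of them *Gstm5* and *Gstm7* fell and *Gsta3* and *Mgst1* rose in BAT. No window was matched for *Gclc*, *Gsr*, *Gsta4*, *Gstt2*, *Ggt5* and *Oplah*, which were therefore not searched. The window of *Gstm7*, the gene with the largest fall, is shown with its core in capitals (GRCm38.p6, chr3:107931565-107931864, minus strand). That window belongs to a start inside the annotated gene. The second *Gstm7* window (107931768 to 107932067), set at the annotated first base of the gene (107931817), holds no core. The core shown lies downstream of that base.
Gstm7: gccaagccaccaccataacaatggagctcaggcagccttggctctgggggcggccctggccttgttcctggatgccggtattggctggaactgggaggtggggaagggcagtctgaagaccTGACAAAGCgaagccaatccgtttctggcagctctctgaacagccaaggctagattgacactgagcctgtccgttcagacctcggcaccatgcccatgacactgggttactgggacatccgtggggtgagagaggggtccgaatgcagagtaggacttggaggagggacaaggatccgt
A match describes the letters of a window and not a bound site.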

How the data were processed

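Total RNA was depleted of ribosomal RNA and sequenced as paired reads. The authors aligned the reads to the Ensembl 101 genome of the mouse (GRCm38) with STAR and deposited, for each of the 18 libraries, the count of unique reads on each gene without normalization, together with CPM, FPKM and TPM that were not used. Genes were matched to symbols for 55141 of 55487 identifiers.

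Counts were analysed with edgeR 4.0.16 in R 4.3.3 (TMM factors, genes kept by filterByExpr at a count of 10 and a total of 15, quasi-likelihood test with robust fitting, Benjamini-Hochberg adjustment over all genes tested). Genotypes were compared within each tissue, the difference between tissues by the interaction over all libraries, and Ctrl BAT with Ctrl sWAT. The standard error is the log2 fold change over the root of F. Alternatives used limma 3.58.1, DESeq2 1.42.0, other scalings, filters and each library left out. Levels per kilobase used the deposited gene length and TMM factors over all libraries. Scripts were tested on simulated data, and no 2 libraries of a group agreed within sampling noise. Of simulated log2 changes of 1, the test found 20% in sWAT, 65% in BAT and 19% in the interaction. For this size of change 100 genes were drawn at random over all levels. Fewer genes changed there than were called in the data (5.31% in sWAT and 31.9% in BAT). These rates therefore need not hold for the glutathione genes. False calls were 4.95%, 4.85% and 8.33% of the simulated calls. A gene without a call, above all in sWAT, may therefore still have changed. Tables and figures were made with Python 3.11.15. Depth differs between libraries, and counts carry counting error.

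The genes and lists were chosen with earlier results of these data known. Every gene of the rule is named, those called between genotypes or in the interaction with values per library, and of the 55 further genes the 5 called of smallest adjusted p in each tissue. Marker lists named in the text were for adipocytes, brown adipocytes, macrophages, lymphocytes, mast cells, endothelium, skeletal muscle, liver, and fibroblasts with progenitors.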

Additional observations from a re-analysis of the deposited data

Results flagged for a closer look

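Of 144 groups of library values, 11 had a library whose gap to the nearest other was large for the range of the group, and chance alone gives about 1 in 20. In Csn8AKO sWAT replicate 2, 4 genes were low: *Gstm6* (0.679 CPM, others 1.65 to 1.67), *Gstm7* (0.407 CPM, others 1.39 to 1.65), *Gstp1* (22.6 CPM, others 35.6 to 37.8) and *Gstp2* (4.16 CPM, others 7.72 to 8.38). In Ctrl sWAT, *Gss* was 22.0 CPM in replicate 2 (others 10.9 to 12.0) and *Gstm7* 2.90 CPM in replicate 1 (others 4.26 to 4.56). In Ctrl BAT, replicate 1 was high for *Gpx1* (230 CPM, others 179 to 191) and *Gstt2* (62.5 CPM, others 50 to 51.9), replicate 4 was high for *Gpx8* (28.1 CPM, others 1.32 to 2.15), and replicate 3 was low for *Gstm6* (0.532 CPM, others 0.812 to 0.905). In Csn8AKO BAT, *Gstt3* was 2.13 CPM in replicate 3 (others 2.84 to 3.14).

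The genotype difference itself differed between BAT and sWAT, by the interaction term, for *Gstm4* (-1.07 on the log2 scale) and *Gstp3* (3.12).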

How the results depend on the processing

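No call of a named gene changed sign in any of the 1027 values under an alternative, and 95 of them no longer passed the adjusted p of 0.05. Over the libraries left out in turn, genes called lower in sWAT ranged from 1 to 6 (6 with all libraries) and those called higher stayed at 1. In BAT the counts ranged from 14 to 16 lower and from 4 to 6 higher, and for the interaction from 1 to 3 lower and 0 to 3 higher. For the interaction, 0 were called higher without sWAT Ctrl replicate 3 or Csn8AKO replicate 1, 2 higher and 3 lower without sWAT Csn8AKO replicate 2, 3 higher without sWAT Csn8AKO replicate 4, and 2 higher without BAT Ctrl replicate 4 or Csn8AKO replicate 2. With scaling by library size alone, 0 genes were called higher in sWAT (7 lower), and in the interaction 0 were called lower. This scaling moved the median of all genes to 0.14 in BAT and 0.213 in the interaction, and among all genes called it gave 106 higher and 328 lower in sWAT (434 and 566 with TMM), 4183 and 2087 in BAT (3585 and 3536), 494 and 39 in the interaction (362 and 170) and 3781 and 6719 between Ctrl tissues (5748 and 6039). With all 4 groups in 1 fit, 2 genes were called higher and 11 lower in sWAT and 3 higher and 12 lower in BAT, where *Gpx4*, *Gsta3*, *Gstm2*, *Mgst1* and *Mgst3* lost their calls. DESeq2 called 2 higher in sWAT and 3 higher in the interaction, limma voom 4 higher and 2 lower in the interaction, a filter of over 1 CPM 2 higher, and no filter 0 higher there. Over all genes, DESeq2 called 1946 and limma voom 2155 in sWAT (1000 with edgeR), the fit of all 4 groups 2463, and in the interaction they called 1092 and 903 (532 with edgeR). Leaving out libraries gave 326 to 1477 calls over all genes in sWAT and 355 to 720 in the interaction. The cause of these differences was not tested.

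The labels do not say whether same-numbered samples were paired. Deviations of same-numbered libraries correlated between -0.416 and 0.241 in sWAT and between -0.131 and 0.143 in BAT. In BAT, replicates 1 and 5 correlated best with their own number, and no other library of either tissue did. No clear pairing was seen, and a weak one could be missed. With the replicate number as a block, 1 gene was called lower in sWAT, 0 higher in the interaction, and 299 genes over all in sWAT and 297 in the interaction.

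Between 15835721 and 23109603 reads were counted in sWAT, where 4 mice per group leave calls near the threshold dependent on single libraries. Genes with few reads, such as *Gstp3* in sWAT (down to 2), have wide errors.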
